A study of Mus musculus with 8 samples.

Results

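The genes described here are 45 protein-coding genes that lie around Dclk3 on mouse chromosome 9, from Lrrfip2 to Ano10 (mm10 9:111117592 to 122294423). They were chosen by position alone, as a list of genes within about 10 Mb of Dclk3. All 45 of 45 were found among the 31417 genes of the table and all 45 passed the filter on low counts. By the distance between gene midpoints, 41 members lie within 10 Mb of Dclk3, and Vipr1, Nktr, Snrk and Ano10 lie just beyond. The list is one-sided: 3 members (Lrrfip2, Epm2aip1 and Trank1) have lower coordinates than Dclk3 and 42 have higher ones. RNA was measured in bulk hippocampus of mice aged 12 months, with 4 libraries from animals labelled Dclk3 knock out (KO) and 4 from wild type (WT), each made by poly(A) selection and stranded sequencing from 1000 ng of RNA of a single hippocampus. Neither group had any other labelled allele or treatment. The sources used here do not give the deleted part of Dclk3, the strain, the litters or the cells used for targeting, and no label ties libraries to separate animals, so p-values measure the spread between these libraries, part of which may be technical.

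Dclk3 is a protein kinase gene of the doublecortin family that is expressed mainly in neurons. Genes next to a targeted locus are inherited together with it, because recombination between close positions is rare, and their transcription can share enhancers, promoters and chromatin domains with the altered gene. The members share no pathway. They include beta-catenin (Ctnnb1), the receptors Tgfbr2 and Acvr2b, a dynein subunit, Golgi proteins, RNA-binding proteins and mitochondrial enzymes, many of which are used by nearly every cell type.

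Promoter sequences are shown for the 5 members whose values the results turn on. These are Trank1, which had the highest fitted fold change, Nktr, which had the lowest p, and the adjoining genes Wdr48, Gorasp1 and Ttc21a, of which Gorasp1 and Ttc21a start head to head. Each window runs from 250 bases before to 50 after the annotated start, read 5′ to 3′ on the strand of the gene, from RefSeq on GRCm38.p6. Capitals mark matches on either strand to CCGGAAG (the core bound by ETS factors), CACGTG (an E-box) and CCAAT.
Trank1 at chr9:111311489-111311788, plus strand: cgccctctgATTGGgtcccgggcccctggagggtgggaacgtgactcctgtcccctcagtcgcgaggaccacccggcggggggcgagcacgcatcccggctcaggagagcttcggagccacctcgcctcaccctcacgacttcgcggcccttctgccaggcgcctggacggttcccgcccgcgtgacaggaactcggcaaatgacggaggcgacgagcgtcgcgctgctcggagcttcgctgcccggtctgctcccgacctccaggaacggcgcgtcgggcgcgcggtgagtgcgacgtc
Nktr at chr9:121718931-121719230, plus strand: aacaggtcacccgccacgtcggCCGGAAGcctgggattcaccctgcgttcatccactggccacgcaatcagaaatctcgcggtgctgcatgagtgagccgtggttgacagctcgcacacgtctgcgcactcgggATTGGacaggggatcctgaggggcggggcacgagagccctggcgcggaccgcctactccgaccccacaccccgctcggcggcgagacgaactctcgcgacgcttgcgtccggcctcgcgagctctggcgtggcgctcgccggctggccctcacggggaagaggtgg
Wdr48 at chr9:119894645-119894944, plus strand: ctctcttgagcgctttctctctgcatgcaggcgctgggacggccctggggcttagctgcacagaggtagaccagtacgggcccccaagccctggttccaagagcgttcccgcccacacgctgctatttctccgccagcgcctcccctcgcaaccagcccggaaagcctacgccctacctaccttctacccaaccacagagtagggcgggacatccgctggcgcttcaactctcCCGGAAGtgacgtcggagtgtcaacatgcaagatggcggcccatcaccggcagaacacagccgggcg
Gorasp1 at chr9:119937509-119937808, minus strand: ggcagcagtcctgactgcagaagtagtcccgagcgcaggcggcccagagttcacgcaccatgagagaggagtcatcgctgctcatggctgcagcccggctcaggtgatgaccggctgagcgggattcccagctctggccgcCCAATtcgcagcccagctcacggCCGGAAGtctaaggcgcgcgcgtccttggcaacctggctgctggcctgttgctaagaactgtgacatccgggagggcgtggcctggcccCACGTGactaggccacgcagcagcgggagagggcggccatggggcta
Ttc21a at chr9:119937356-119937655, plus strand: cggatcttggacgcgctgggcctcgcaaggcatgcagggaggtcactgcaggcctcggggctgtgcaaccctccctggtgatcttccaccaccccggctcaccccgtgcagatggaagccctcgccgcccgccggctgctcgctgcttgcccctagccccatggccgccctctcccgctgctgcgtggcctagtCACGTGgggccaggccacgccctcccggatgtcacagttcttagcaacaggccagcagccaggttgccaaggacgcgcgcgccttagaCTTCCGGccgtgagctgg

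The windows of Gorasp1 and Ttc21a share 147 bases (chr9:119937509-119937655), so the ETS-type match and the E-box printed in one are the same bases as those printed in the other. RefSeq windows were found for 42 of the 45 members, 64 windows in all since some genes have several starts, and none was found for Golga4, Xylb or Osbpl10. The member windows were rich in G and C, with a median of 61% against 52.7% over all 32841 windows, and a median of 22 CpG pairs against 7. CCGGAAG stood in 16 member windows (25% against 8.86% of all windows) and CACGTG in 9 (14.1% against 7.15%). CCAAT stood in 25 (39.1% against 37.4%), GGGCGG, the GC box, in 37 (57.8% against 35.7%), TATAAA in 5 (7.81% against 13.6%) and TGACGTCA, the cyclic AMP response element, in 3 (4.69% against 1.79%). Windows of one gene can overlap, and the full set of windows includes noncoding genes, so these shares describe letters only. Trank1 had the highest CpG count of the 5 windows shown, 40 in 300 bases, with no ETS-type match or E-box.

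Libraries held 29301974 to 36552757 counts. Levels are given as CPM, the counts of a gene relative to the TMM-scaled total of its library, on which 1 count equalled 0.0272 to 0.0346 CPM. A member had between 42 counts (Ttc21a in WT replicate 4) and 20559 counts (Ctnnb1 in WT replicate 2) in a library, and 43 of 45 members had at least 100 counts in every library. Dclk3 itself checked the labels, with 20.8 to 39.3 CPM in WT and 5.92 to 9.29 CPM in KO libraries, which did not overlap. Its adjusted p was 0.234 by edgeR and 3.93e-13 by DESeq2, so edgeR did not call the targeted gene either, and 0 calls by edgeR is a weak statement about smaller differences. Means are given ± SD over the 4 libraries of a genotype throughout. Markers of hippocampal granule, CA1 and CA3 cells were present in every library. Summed GABA neuron markers did not overlap between genotypes, at 893 to 939 CPM in WT and 799.8 to 831 CPM in KO, with 4 of 6 genes below 0. All 5 CA1 and all 6 CA3 and CA2 markers had log2 fold changes below 0, and all 6 granule cell and all 6 oligodendrocyte markers above 0, with overlapping sums for each of these lists (granule cells 410.2 to 505.4 CPM in WT and 504.8 to 547.9 in KO). edgeR called 0 genes of these lists, and the part of cell composition in the values of the members was not tested. Of 13 marker lists for the tissue and for other cells it could hold, the choroid plexus list (8 genes) varied most, from 74.1 summed CPM in WT replicate 4 to 3453 in KO replicate 2. The first principal component held 30.7% of the variance of log2(CPM + 1), with WT replicate 2 at 23.5 and KO replicate 1 at -21.1. In bulk tissue, fewer cells of a type and less RNA per cell cannot be told apart.

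Members spanned a wide range of levels. Compared per kilobase of exon, because long transcripts collect more counts, Ctnnb1 was the most abundant at 114 CPM per kb in WT, followed by Eif1b at 62.9, Gpd1l at 34.7 and Epm2aip1 at 34.3. The lowest were Ttc21a at 0.404, Ulk4 at 0.661 and Itga9 at 0.857 CPM per kb, and the median member had 6.16. High and low members were interspersed along the chromosome: Ulk4, one of the lowest, directly follows Ctnnb1, and Eif1b is followed by Entpd3 at 2.32 CPM per kb. Gpd1l and Epm2aip1 did not differ beyond their spread in this order, nor did Wdr48 and Gorasp1 at 9.32 and 9.37 CPM per kb. The coefficient of variation over the 8 libraries ran from 2.27% for Wdr48 to 39.2% for Ttc21a, with a median of 8.66% against 10.7% over all genes tested. Trank1 was the second most variable member at 31.1%.

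**Figure D1:**
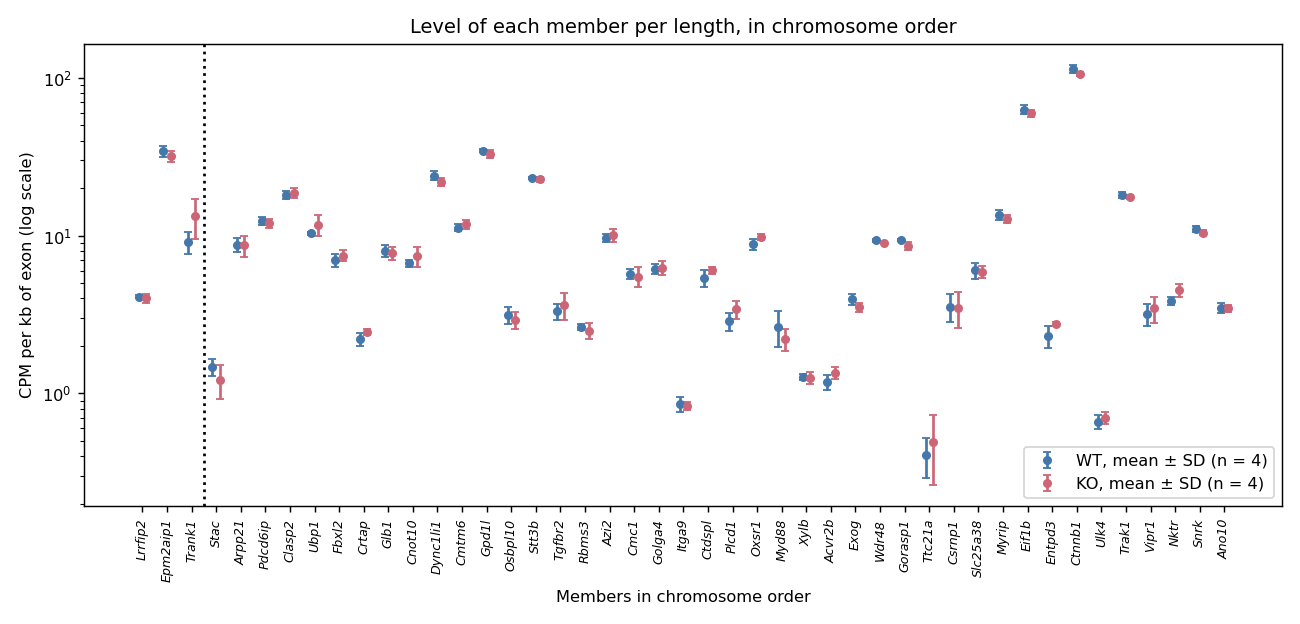
Level of each of the 45 members in CPM per kilobase of exon (log axis), in chromosome order, as the mean ± SD of 4 WT (blue) and 4 KO (red) libraries; the dotted line marks the position of Dclk3. Levels run from 0.404 for Ttc21a to 114 for Ctnnb1 in WT, and the genotypes lie close together for nearly all members, with Trank1 standing higher in KO.

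No member was called between KO and WT. edgeR's quasi-likelihood test, adjusted by Benjamini-Hochberg over 16228 genes, called 0 of 45 members at an adjusted p under 0.05 and 0% of all genes. DESeq2 called 0 members and 0.0308% of all genes, and limma-voom called 0 members and 0% of all genes. By edgeR, 5 members (11.1%) had an unadjusted p under 0.05, against 6.16% of all genes tested, and 0 members had one under 0.01, against 0.918%. DESeq2 put 5 members under an unadjusted p of 0.05, against 6.17% of all genes, and limma-voom 7, against 9.27%. Below 0.01, DESeq2 put Trank1 (unadjusted p = 0.00315, adjusted p = 0.511) and Nktr (unadjusted p = 0.00715, adjusted p = 0.578), and limma-voom put Trank1 (unadjusted p = 0.00791, adjusted p = 0.467). Of the 5 members with an edgeR unadjusted p under 0.05, Trank1, Nktr and Oxsr1 were higher in KO, where the share over all genes is 3.96%. Exog and Gorasp1 were lower, where it is 2.2%. The edgeR adjusted p was 0.796 for each of the 5. With edgeR the count was 3 without WT replicate 1, WT replicate 4 or KO replicate 1, where the share over all genes was 6.57%, 3.37% and 4.40%. It was 1 without WT replicate 2 or KO replicate 2 (4.57% and 3.90% of all genes) and 9 without KO replicate 4 (10.8% of all genes), so in these last 3 settings the count and the share over all genes moved in the same direction.

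Fold changes of the members were small and lay on both sides of 0. Of the 45, 19 had a log2 fold change above 0 and 26 below, with a median of -0.02 against 0.00029 over all genes tested, and a median size of 0.086 against 0.087. The fold lay under 1.2 in either direction for 42 of 45 members, with Trank1, Stac and Ttc21a past it. Standard errors (SE) of log2 fold changes ran from 0.05 for Wdr48 to 0.32 for Ttc21a. For 39 members the 95% interval of the log2 fold change stayed within 0.5 of 0. For 6 members it reached further, so differences beyond 0.5 were not excluded there at this replication. KO and WT libraries did not overlap in 4 members, namely Wdr48, Gorasp1, Entpd3 and Nktr (8.89% against 3.8% of all genes tested). Entpd3 and Nktr were higher in KO, where the share over all genes is 1.88%, and Wdr48 and Gorasp1 were lower, where it is 1.92%. Leaving out WT replicate 2 or KO replicate 1 gave 2 such members, leaving out WT replicate 3 gave 7 and leaving out KO replicate 4 gave 11. Other scaling factors gave 1 or 2. The share of all genes without overlap was not computed in these settings, and groups with fewer libraries overlap less easily. These counts therefore have no background and are not read as a result about the members.

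Median fold changes did not run in one direction with distance from Dclk3. The 5 members within 1 Mb had a median log2 fold change of -0.04, the 13 at 1 to 5 Mb had 0.04, the 23 at 5 to 10 Mb had -0.03 and the 4 beyond 10 Mb had 0.06. At an unadjusted p under 0.05 these bins held 1, 0, 3 and 1 members. The other protein-coding genes of the region, 160 that passed the filter within 10 Mb, included 144 at lower coordinates than Dclk3. Of these 160, edgeR called 0 while DESeq2 called Col6a4 (adjusted p = 1.2e-06), and 12 (7.5%) had an unadjusted p under 0.05, 8 higher and 4 lower in KO, with a median log2 fold change of 0.0036. By distance, the 13 of them within 1 Mb had 10 log2 fold changes above 0, a median of 0.16 and 0 at an unadjusted p under 0.05, the 97 at 1 to 5 Mb had a median of -0.02 and the 50 at 5 to 10 Mb one of 0.02. Leaving out KO replicate 4 gave 27 genes with an unadjusted p under 0.05, leaving out WT replicate 4 gave 7 and leaving out KO replicate 2 gave 6, where the shares over all genes were 10.8%, 3.37% and 3.90% in place of 6.16%. The lowest edgeR p among the 160 also belonged to Col6a4, a type VI collagen chain gene at -5.42 Mb, on the lower-coordinate side of Dclk3, with 0.611 ± 0.326 CPM in WT against 3.19 ± 0.564 CPM in KO.

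**Figure D2:**
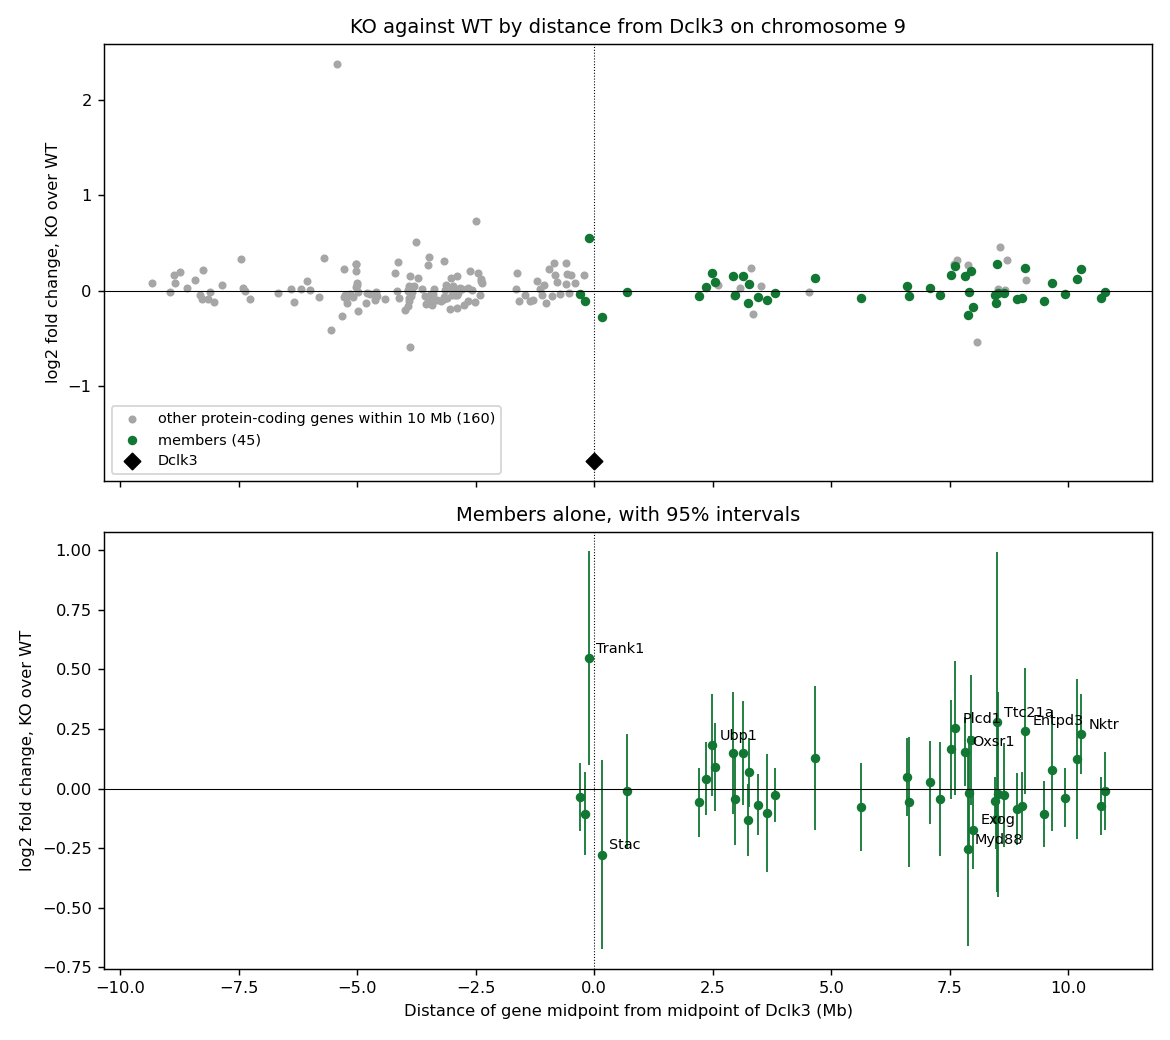
Log2 fold change of KO over WT against the distance of each gene's midpoint from that of Dclk3 in Mb. The upper panel shows the 45 members (green), 160 other protein-coding genes within 10 Mb (grey) and Dclk3 (black diamond); the lower panel shows the members alone with 95% intervals. Dclk3 stands at -1.79 and the grey point above 2 is Col6a4, while the members lie between -0.28 for Stac and 0.55 for Trank1.

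Trank1 is the member nearest to Dclk3, ending 43.3 kb before it (ENSMUSG00000062296, mm10 9:111311739 to 111395775, plus strand). It encodes a large protein with tetratricopeptide and ankyrin repeats and has been linked to bipolar disorder by genetic association. Its level was 135, 107, 136 and 99.7 CPM in WT replicates 1 to 4, against 237, 192, 145 and 125 CPM in KO replicates 1 to 4. The 3 highest libraries were all KO, but KO replicate 4 lay below WT replicates 1 and 3, so the groups overlapped. The means were 119 ± 18.8 and 174 ± 49.96 CPM (SD, n = 4 each), a log2 fold change of 0.55 (SE 0.20, 95% interval 0.098 to 0.996), with an unadjusted p of 0.0222 and an adjusted p of 0.796 by edgeR. The adjusted p was 0.511 by DESeq2 and 0.467 by limma-voom.

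Trank1 was highest in the same 3 libraries as the summed level of a group of nucleus-enriched long noncoding RNAs. These 10 RNAs (Malat1, Neat1, Meg3, Miat, Rian, Mirg, Snhg11, Kcnq1ot1, Ftx and Snhg14) were chosen after the values were seen. Their summed level was 4212, 3532 and 3101 CPM in KO replicates 1, 2 and 3, then 2700 in WT replicate 3, 2026 in WT replicate 4, 1926 in WT replicate 1, 1908 in KO replicate 4 and 1662 in WT replicate 2. None of the 10 was at 0, 9 had a log2 fold change above 0, and edgeR called 0, with 5 at an unadjusted p under 0.05. DESeq2 called Ftx, with an adjusted p of 0.0423. Meg3 and Snhg11 carried much of the sum, while Malat1 was the 1 RNA below 0. KO replicates 1, 2 and 3 were the top 3 libraries for both Trank1 and this sum, in the same order. Below them the order differed. WT replicate 4 stood above WT replicate 1 and KO replicate 4 in the sum but had the lowest Trank1 value of all libraries, 99.7 CPM. Without KO replicates 1 and 2, a choice made after seeing the data, the log2 fold change of Trank1 was 0.17 (unadjusted p = 0.262 by edgeR). The part of this RNA pattern in the Trank1 difference was not tested.

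Nktr, Ubp1 and Cnot10 were also highest in KO replicate 1, as were Fbxl2, Entpd3 and Arpp21. Arpp21 did not follow the noncoding RNA sum in KO replicate 3, where it had its lowest value, 127 CPM. Nktr encodes a cyclophilin-related protein with arginine and serine rich stretches (ENSMUSG00000032525, mm10 9:121719169 to 121756843). It had 82.3, 76.3, 87.5 and 81.5 CPM in WT replicates 1 to 4, against 109.7, 93.1, 87.7 and 93.2 CPM in KO replicates 1 to 4. The groups did not overlap, but the nearest values, 87.5 in WT replicate 3 and 87.7 in KO replicate 3, were almost equal. Its log2 fold change was 0.23 (SE 0.08, edgeR unadjusted p = 0.0125, adjusted p = 0.796). Ubp1, a transcription factor of the grainyhead-like family, had 47.7, 50.5, 50.1 and 48.2 CPM in WT replicates 1 to 4, against 65.4, 59.4, 52.4 and 45.8 CPM in KO replicates 1 to 4. Cnot10, a subunit of the CCR4-NOT deadenylase complex, had 44.8, 41.3, 46.8 and 43.9 CPM in WT replicates 1 to 4, against 56.2, 49.7, 51.1 and 39.2 CPM in KO replicates 1 to 4. For Ubp1 and Cnot10 the KO libraries spanned both the highest and the lowest value of all 8, with KO replicate 1 at the top and KO replicate 4 at the bottom.

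**Figure D3:**
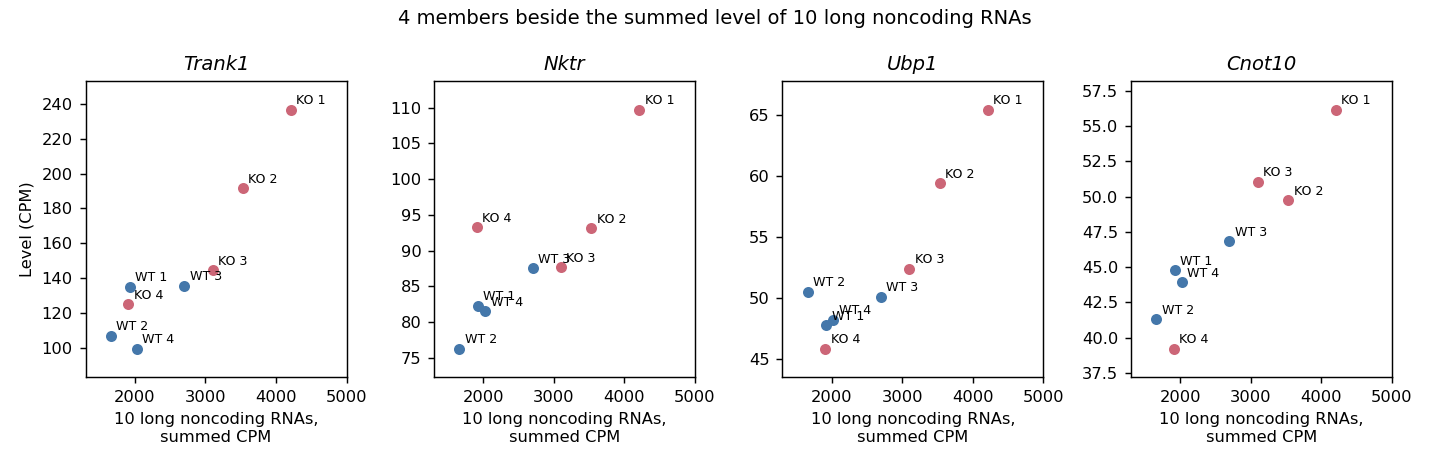
Level of Trank1, Nktr, Ubp1 and Cnot10 in CPM (vertical axes, which do not start at 0) against the summed CPM of 10 long noncoding RNAs in the same library; each point is 1 library, blue for WT and red for KO, with its replicate number. KO replicate 1 is highest on both axes in all 4 panels, with 4212 CPM of the noncoding RNAs and 237 CPM of Trank1, while KO replicate 4 lies among the WT libraries on the horizontal axis.

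The other close neighbours overlapped between genotypes. Stac, 72.3 kb beyond Dclk3, encodes an adaptor of voltage-gated calcium channels and had 3.40, 3.93, 3.73 and 4.49 CPM in WT replicates 1 to 4, against 2.5, 3.44, 4.19 and 2.72 CPM in KO replicates 1 to 4. KO replicates 2 and 3 stood inside the WT range, so the groups overlapped, and the log2 fold change of -0.28 had an SE of 0.18 (edgeR adjusted p = 0.799) and a 95% interval from -0.67 to 0.12. This was the lowest log2 fold change of the 45 members. Epm2aip1, whose product binds laforin, a phosphatase of glycogen metabolism, had 229.9, 271, 234 and 247 CPM in WT replicates 1 to 4, against 206, 229, 224 and 254 CPM in KO replicates 1 to 4. The groups overlapped, and its log2 fold change was -0.10 with an SE of 0.08.

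Lrrfip2, a regulator of Toll-like receptor and Wnt signalling, was nearly level over all libraries, at 25.6, 25.6, 26.1 and 26.6 CPM in WT replicates 1 to 4, against 25.0, 23.2, 27.5 and 25.7 CPM in KO replicates 1 to 4. Arpp21, a neuronal RNA-binding protein that is a target of dopamine and cyclic AMP signalling, had 144, 137, 168 and 161 CPM in WT replicates 1 to 4, against 183, 147, 127 and 149 CPM in KO replicates 1 to 4. The KO libraries held both the highest and the lowest Arpp21 value, and the log2 fold change was -0.01 (SE 0.11). Pdcd6ip (ALIX), an adaptor of the ESCRT machinery that cuts membranes, had 81.2, 92.3, 83.9 and 85.8 CPM in WT replicates 1 to 4, against 77.2, 79.2, 82.9 and 90.5 CPM in KO replicates 1 to 4, which overlapped.

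Among the 11 members that encode receptors and signalling proteins, 7 had a log2 fold change above 0 and 4 below, with a median of 0.08, and edgeR called 0 and put 1 at an unadjusted p under 0.05. Oxsr1, a kinase that phosphorylates cation chloride cotransporters, had 52.7, 46.6, 44.5 and 44.7 CPM in WT replicates 1 to 4, against 52.0, 51.9, 55.5 and 50.6 CPM in KO replicates 1 to 4. WT replicate 1 lay within the KO range and the other 3 WT libraries below it, with a log2 fold change of 0.16 (SE 0.07, edgeR unadjusted p = 0.0387, adjusted p = 0.796). Plcd1, a phosphoinositide phospholipase C, had 8.63, 8.01, 10.6 and 8.13 CPM in WT replicates 1 to 4, against 11.1, 12.1, 10.2 and 8.80 CPM in KO replicates 1 to 4. Its groups overlapped through WT replicate 3 and KO replicate 4, and its log2 fold change of 0.25 had an SE of 0.13 (edgeR adjusted p = 0.796).

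The receptors were low to moderate in level. Acvr2b, a receptor for activins and myostatin, averaged 4.61 ± 0.507 CPM in WT against 5.30 ± 0.487 CPM in KO, and Tgfbr2, the type II receptor for transforming growth factor beta, had 27.1 ± 3.26 and 29.6 ± 5.72 CPM. KO replicate 4 held the highest Tgfbr2 value, 37.02 CPM, and leaving it out put the log2 fold change at 0.0028. Endothelial markers (5 of 5 above 0, 0 called), from cells in which Tgfbr2 is prominent, were also highest in KO replicate 4, at 298 summed CPM against 219.8 to 264 in WT and 224 to 276 in the other KO libraries. Microglia markers (6 of 6 above 0, 0 called) were highest there too, at 583 summed CPM against 487 to 563 in WT. The part of these cells in the Tgfbr2 values was not tested. Vipr1, a receptor for vasoactive intestinal peptide, had 17.5, 15.3, 22.1 and 18.6 CPM in WT replicates 1 to 4, against 21.01, 23.0, 21.6 and 14.5 CPM in KO replicates 1 to 4, with the lowest value of all in KO replicate 4.

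The innate immune adaptors also overlapped. Myd88, which relays Toll-like and interleukin 1 receptor signals, averaged 6.81 ± 1.77 CPM in WT against 5.71 ± 0.910 CPM in KO, and its WT mean was lifted by 9.44 CPM in WT replicate 2. Without that library its log2 fold change was -0.05 in place of -0.25. Azi2, an adaptor of the kinase TBK1, had 64.2, 66.1, 57.8 and 62.1 CPM in WT replicates 1 to 4, against 58.0, 62.4, 66.4 and 71.9 CPM in KO replicates 1 to 4. Itga9, an integrin chain and one of the lowest members per length, had 7.15, 7.01, 6.58 and 5.60 CPM in WT replicates 1 to 4, against 6.29, 6.18, 6.19 and 6.91 CPM in KO replicates 1 to 4. Snrk, a kinase related to AMPK, had 63.6 ± 3.004 and 60.4 ± 2.18 CPM, and the pseudokinase gene Ulk4 had 5.40, 6.11, 6.04 and 4.93 CPM in WT replicates 1 to 4, against 6.09, 6.48, 5.26 and 5.86 CPM in KO replicates 1 to 4.

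Of the 6 members of the cytoskeleton, adhesion and transport, 5 lay below 0 and 1 above, with a median log2 fold change of -0.10, and edgeR called 0 and put 0 at an unadjusted p under 0.05. Ctnnb1, which encodes beta-catenin, the link of cadherins to the cytoskeleton and the effector of Wnt signalling, had 562, 641, 582 and 590.3 CPM in WT replicates 1 to 4, against 552, 535, 541 and 577 CPM in KO replicates 1 to 4. Only WT replicate 1 and KO replicate 4 crossed, and the log2 fold change was -0.11 (SE 0.06, 95% interval -0.25 to 0.03, edgeR adjusted p = 0.796). Dync1li1, a light intermediate chain of dynein, the motor of retrograde transport, had 89.7, 102, 87.9 and 92.2 CPM in WT replicates 1 to 4, against 78.0, 89.3, 88.8 and 83.7 CPM in KO replicates 1 to 4. Its log2 fold change of -0.13 had an SE of 0.07 (edgeR adjusted p = 0.796), and without WT replicate 2 it was -0.08.

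Trak1, which couples mitochondria to kinesin and dynein, averaged 228 ± 10.4 CPM in WT against 222 ± 6.44 CPM in KO. Clasp2, a microtubule plus-end protein, had 279.9 ± 15.8 and 288 ± 19.9 CPM, and Myrip, a Rab27 effector that binds myosin, had 74.8 ± 5.61 and 70.5 ± 3.87 CPM. The KO to WT ratio of means was between 0.942 and 1.03 in these 3 genes.

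The 10 members of the Golgi, endomembranes and lipid handling had 4 log2 fold changes above and 6 below 0, with a median of -0.02 and 0 calls by edgeR, with 1 member at an unadjusted p under 0.05. Gorasp1 (GRASP65), a stacking protein of Golgi cisternae (ENSMUSG00000032513, mm10 9:119925257 to 119937565, minus strand), had 38.0, 38.6, 38.9 and 39.8 CPM in WT replicates 1 to 4, against 37.2, 34.0, 37.3 and 33.5 CPM in KO replicates 1 to 4. The highest KO value lay below the lowest WT value, with a log2 fold change of -0.13 (SE 0.06, edgeR unadjusted p = 0.0459, adjusted p = 0.796). The groups of its neighbour Wdr48, the cofactor that activates the deubiquitinase USP1 (ENSMUSG00000032512, mm10 9:119894878 to 119926587, plus strand), also did not overlap. The nearest Wdr48 values, 81.5 in WT replicate 3 and 81.4 in KO replicate 2, were almost equal. Wdr48 had 82.6, 84.7, 81.5 and 84.1 CPM in WT replicates 1 to 4, against 80.4, 81.4, 80.03 and 79.7 CPM in KO replicates 1 to 4, a log2 fold change of -0.05 (SE 0.05, edgeR unadjusted p = 0.294, adjusted p = 0.846).

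Wdr48 and Gorasp1 overlap tail to tail over 1331 bases, all of them exonic in both, which is 14.9% of the exon length of Wdr48 and 32.1% of that of Gorasp1. The library kit keeps strand, but whether the counting used it is not stated in the sources used here, so reads from the shared bases cannot be assigned with certainty and the values of the 2 genes are not independent. The same limit holds for 12 members that share exon bases with a gene on the opposite strand, among them Ubp1 with Fbxl2 (496 bases), Ctnnb1 with Ulk4 (759 bases), Myd88 with Acaa1a (290 bases) and Nktr with the antisense gene E530011L22Rik (2182 bases).

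Ttc21a, a gene of ciliary transport, has its annotated start 41 bases from that of Gorasp1 on the opposite strand, and its printed window shares 147 bases with that of Gorasp1. It had 2.28, 2.93, 2.09 and 1.42 CPM in WT replicates 1 to 4, against 1.88, 4.43, 2.63 and 1.70 CPM in KO replicates 1 to 4, so its groups overlapped in part, with KO replicate 2 above every WT library and WT replicate 4 below every KO library (log2 fold change 0.28, SE 0.32, edgeR adjusted p = 0.880). While Gorasp1 varied by 6.11% over the 8 libraries, Ttc21a varied by 39.2%, and its level per kilobase was 0.404 CPM against 9.37 CPM in WT. The choroid plexus list (8 of 8 above 0, 0 called by edgeR, none at 0) ran from 74.1 to 2227 summed CPM in WT and from 192 to 3453 CPM in KO. KO replicate 2 and WT replicate 2 were the highest and second highest libraries in both Ttc21a and that list, and WT replicate 4 was the lowest in both. A list of 4 motile cilium genes was also highest in KO replicate 2, at 22.4 summed CPM, and lowest in WT replicate 4, at 12.86 CPM. It did not follow Ttc21a in KO replicate 4, which was second in the cilium list at 20.9 CPM but second lowest in Ttc21a. KO replicate 1 was low in both, at 12.92 CPM in the cilium list and 1.88 CPM of Ttc21a. The part of these cells in the Ttc21a values was not tested.

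**Figure D4:**
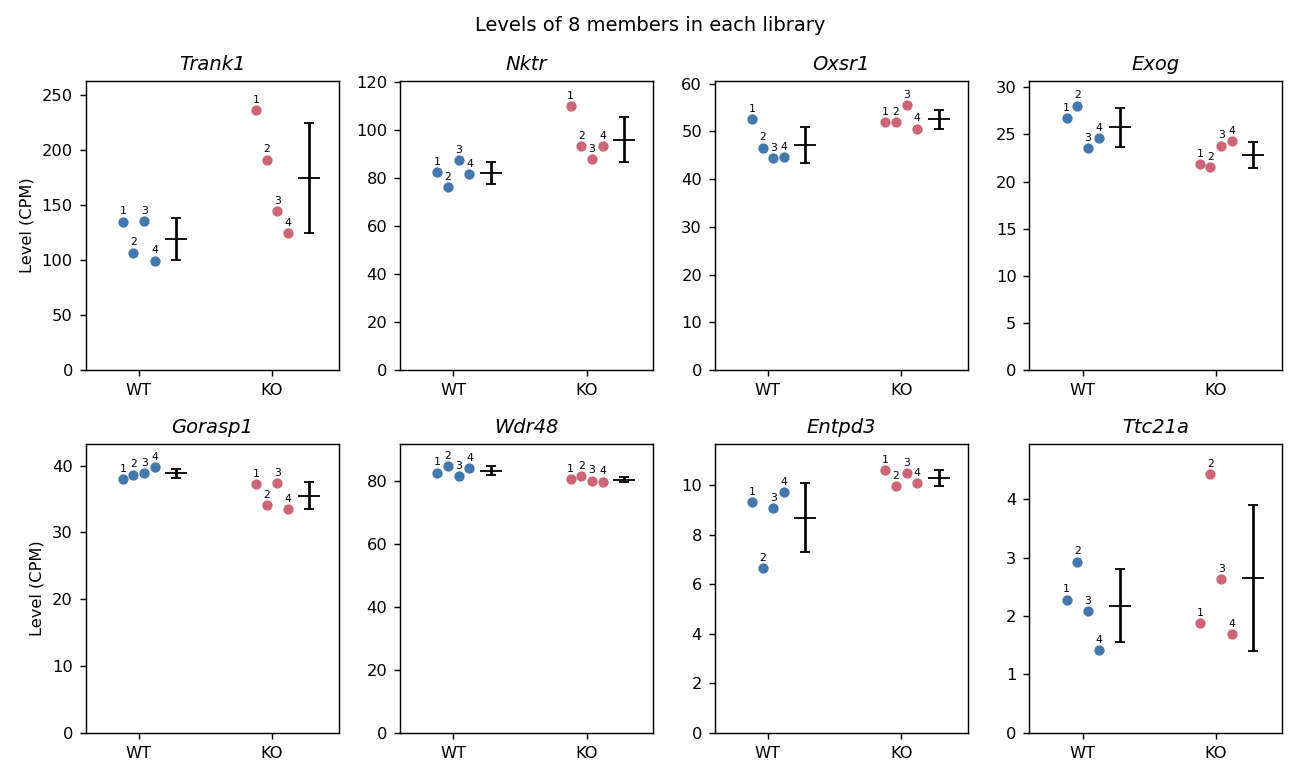
Levels in CPM of 8 members in each library, with replicate numbers beside the points and the mean ± SD (n = 4) of each genotype drawn to the right of its points; all vertical axes start at 0. Nktr, Gorasp1, Wdr48 and Entpd3 show no overlap between WT (blue) and KO (red), Trank1 and Oxsr1 overlap, and the KO values of Ttc21a run from 1.70 to 4.43.

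Entpd3, an ectoenzyme that hydrolyses extracellular nucleotides, had 9.32, 6.64, 9.09 and 9.72 CPM in WT replicates 1 to 4, against 10.6, 9.95, 10.5 and 10.1 CPM in KO replicates 1 to 4. The groups did not overlap, and WT replicate 2 lay well below the rest. Its log2 fold change was 0.24 (SE 0.12, edgeR unadjusted p = 0.0692, adjusted p = 0.796), and without WT replicate 2 it was 0.14. The remaining 8 members of this role overlapped between genotypes. Glb1, the lysosomal beta-galactosidase, averaged 24.0 ± 2.165 CPM in WT against 23.4 ± 2.26 CPM in KO, and Stt3b, a catalytic subunit of oligosaccharyltransferase, had 97.7 ± 1.87 and 96.0 ± 3.98 CPM. Golga4, a tethering protein of the trans-Golgi, had 83.8 ± 5.62 and 85.3 ± 8.56 CPM. Cmtm6, which stabilises PD-L1 at the membrane, had 38.7 ± 2.13 and 40.6 ± 2.60 CPM. Crtap, a component of the collagen prolyl 3-hydroxylation complex, had 3.91 ± 0.370 and 4.34 ± 0.196 CPM, the oxysterol-binding protein gene Osbpl10 had 16.2 ± 2.00 and 15.1 ± 1.85 CPM, and the anoctamin gene Ano10 had 20.6 ± 1.56 and 20.5 ± 1.081 CPM.

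The 8 members that act on RNA or transcription were evenly divided, with 4 above and 4 below 0, a median of 0.07 and 0 calls by edgeR, with 1 member at an unadjusted p under 0.05. Besides Nktr, Ubp1, Cnot10 and Arpp21, Eif1b stood out by its level per length. Eif1b, a homologue of the start codon selection factor eIF1, had 76.2, 69.3, 65.2 and 72.1 CPM in WT replicates 1 to 4, against 66.8, 70.2, 69.7 and 62.4 CPM in KO replicates 1 to 4, which overlapped. Ctdspl, a small phosphatase that acts on RNA polymerase II, averaged 28.01 ± 3.62 CPM in WT against 31.4 ± 1.63 CPM in KO, and its log2 fold change of 0.17 was 0.08 without WT replicate 2. Rbms3, an RNA-binding protein with the longest gene body of the members, had 27.4 ± 1.12 and 26.01 ± 3.10 CPM. Csrnp1, an immediate early nuclear protein, had 12.3 ± 2.44 and 12.1 ± 3.09 CPM, with values from 8.84 to 15.8 CPM over the 8 libraries.

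All 5 members of mitochondria and metabolism lay below 0, with a median log2 fold change of -0.06 and 0 calls by edgeR, with 1 member at an unadjusted p under 0.05. Exog, a mitochondrial nuclease, had 26.8, 28.1, 23.5 and 24.6 CPM in WT replicates 1 to 4, against 21.9, 21.5, 23.8 and 24.2 CPM in KO replicates 1 to 4. WT replicate 3 lay among the KO libraries, and the log2 fold change was -0.17 (SE 0.08, edgeR unadjusted p = 0.0441, adjusted p = 0.796). Gpd1l, a glycerol 3-phosphate dehydrogenase relative, had 175, 173, 174 and 182 CPM in WT replicates 1 to 4, against 157, 161, 175 and 177 CPM in KO replicates 1 to 4, with KO replicates 3 and 4 inside the WT range. Cmc1, an assembly factor of cytochrome c oxidase, had 6.87, 6.11, 6.52 and 7.26 CPM in WT replicates 1 to 4, against 6.80, 7.50, 5.40 and 6.01 CPM in KO replicates 1 to 4. Slc25a38, the mitochondrial glycine carrier needed for heme synthesis, had 16.5 ± 1.93 and 16.2 ± 1.41 CPM, and Xylb, xylulokinase, had 5.19 ± 0.233 and 5.12 ± 0.448 CPM. With upper quartile scaling Xylb stood at 0.00017, just above 0.

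Beside Wdr48, the ubiquitin system was represented by Fbxl2, a substrate receptor of SCF ubiquitin ligases, with 31.2 ± 2.94 CPM in WT and 33.2 ± 2.67 CPM in KO, and a log2 fold change of 0.09 with an SE of 0.08.

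Seen by library, the highest and lowest values of the members were divided between genotypes. WT replicate 2 was the highest library for 13 of 45 members and the lowest for 7, and KO replicate 1 was the highest for 7 and the lowest for 10. The median over members of the deviation from each gene's mean ran from -0.024 in KO replicate 2 to 0.046 in WT replicate 2 on the log2 scale, and its SD within genotypes was 0.0249.

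**Figure D5:**
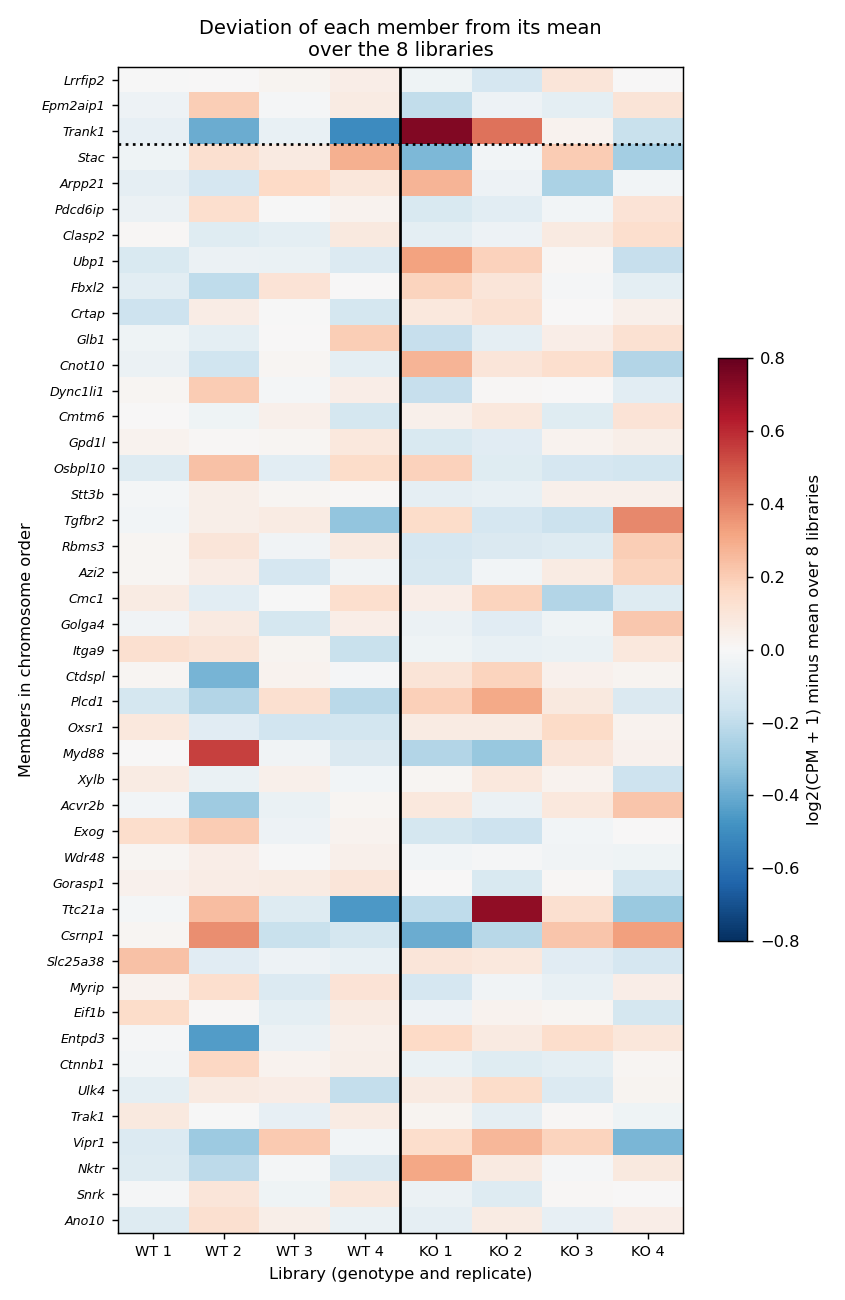
Deviation of each member's log2(CPM + 1) from its mean over the 8 libraries (red above, blue below, scale limited to 0.8), with members in chromosome order from top to bottom, libraries in columns and a dotted line at the position of Dclk3. The strongest colours belong to Trank1 and Ttc21a, each in more than 1 library, and to Myd88 and Entpd3 in WT replicate 2. No block of adjoining members shares a colour across all 4 KO libraries.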

How the data were processed

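The authors deposited whole-number read counts per Ensembl gene, 1 column per library and not normalized, per the file headers. The submitters' processing notes name bcl2fastq 2.17.1.14 and mm10; no source used here states the aligner, the counting tool or whether strand was used. Positions and exon lengths came from GENCODE M21 of the same build, and 31292 of 31417 gene IDs had a symbol and position.

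Genotypes were compared in R 4.3.3 with edgeR 4.0.16 (TMM scaling, filterByExpr, robust quasi-likelihood fit, two-sided), with Benjamini-Hochberg adjustment over 16228 genes. An SE is the size of the log2 fold change divided by the square root of F. Alternatives were DESeq2 1.42.0, limma-voom (limma 3.58.1), other scalings and filters, no robust estimation, a replicate block and each library left out. Every limma-voom result used quality weights, which weight each library by its estimated variability. The pipeline was tested on simulated data. Replicate libraries differed by more than sampling noise (chi-square per degree of freedom 8.85 to 40.9), so all 8 were kept. The lowest library total was 29301974 counts; reads carry no molecular identifiers, so counts overstate the number of independent molecules.

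Members, marker lists and the naming rule were chosen with earlier results of these data known. The rule allowed any member to be named. It gave values in every library for the 6 members nearest to Dclk3, the 8 with the lowest p, those whose genotypes do not overlap, the 3 highest and 3 lowest per length, and head-to-head pairs, and it allowed up to 3 other genes of the region. Ubp1 and Cnot10, the 10 noncoding RNAs and the motifs were chosen after values were seen. Some results on genes that are not members are not reported here.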

Additional observations from a re-analysis of the deposited data

Results flagged for a closer look

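In 6 of 90 groups of 4 libraries (45 members in 2 genotypes), 1 library lay far from the other 3 by the 95% limit of Dixon's test. Chance gives about 5% of groups. WT replicate 2 had 22.6 CPM of Ctdspl against 29.4 to 30.2 in the other WT libraries, and 9.44 CPM of Myd88 against 5.60 to 6.18. WT replicate 1 had 19.4 CPM of Slc25a38 against 15.3 to 15.8. KO replicate 1 had 17.8 CPM of Osbpl10 against 13.9 to 14.5 in the other KO libraries. KO replicate 4 had 30.65 CPM of Rbms3 against 24.1 to 24.7, and 6.91 CPM of Itga9 against 6.18 to 6.29.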

How the results depend on the processing

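No member was called under any setting run (DESeq2, limma-voom, 2 other scalings, other filters, no robust estimation, a replicate block, each library left out, KO replicates 1 and 2 left out), and of 765 values of single members under alternatives 723 kept their sign. Members at an unadjusted p under 0.05 numbered 5, but 3 with no filter on low counts, 2 with the replicate block, 0 without KO replicates 1 and 2, 1 to 9 with 1 library left out, and 0 at an edgeR p under 0.01. Members without overlap numbered 4, but 2 with DESeq2 or its size factors and 1 with upper quartile factors or a filter of 1 CPM. They numbered 7 without KO replicates 1 and 2, and 2 to 11 with 1 library left out, where fewer libraries overlap less easily. The share of all genes without overlap was not computed in these settings, so these counts have no background. Other genes of the region at an unadjusted p under 0.05 numbered 12, but 22 with limma-voom, 7 without KO replicates 1 and 2, and 6 to 27 with 1 library left out. Windows of other widths hold other sets of genes, with 5 of 110 genes within 5 Mb and 24 of 239 within 20 Mb. The share of all genes at an unadjusted p under 0.05 was 6.16% in the reported fit, 4.58% with no filter, 5.72% with the block, 4.39% without KO replicates 1 and 2, 9.27% with limma-voom and 3.37% to 10.8% with 1 library left out. Apart from the change of gene set between windows, the cause of these shifts was not tested.

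Replicate numbers did not pair the libraries (correlations of deviations 0.204, 0.133, -0.308 and 0.017; 1 of 4 WT libraries correlated best with its own number). With the replicate block the median log2 fold change of the members was -0.0245.

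Some log2 fold changes changed sign, among them those of Ttc21a (0.28, SE 0.32), Ubp1 (0.18, SE 0.097) and Vipr1 (0.12, SE 0.15). Without KO replicates 1 and 2 these were Lrrfip2 (0.0335), Ttc21a (-0.0174), Csrnp1 (0.259), Ulk4 (-0.0162), Vipr1 (-0.0274), Pdcd6ip (0.0153), Ubp1 (-0.00189), Fbxl2 (-0.00577), Glb1 (0.0666), Stt3b (0.0244), Gpd1l (0.00146) and Rbms3 (0.0126). With limma-voom they were Golga4 (-0.00783), Xylb (0.00588) and Ano10 (0.0261), and with upper quartile factors Xylb (0.00017), Ano10 (0.00659) and Arpp21 (0.00765). With 1 library left out the ranges were -0.0771 to 0.00578 for Lrrfip2, -0.0481 to 0.0625 for Golga4, -0.0552 to 0.0386 for Xylb, -0.0811 to 0.455 for Ttc21a, -0.161 to 0.121 for Csrnp1, -0.0615 to 0.059 for Slc25a38, -0.0494 to 0.0357 for Ano10, -0.111 to 0.0632 for Arpp21, -0.0936 to 0.0206 for Glb1, -0.00846 to 0.101 for Azi2 and -0.136 to 0.0166 for Cmc1.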
